A study of Mus musculus with 11 samples.

Results

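The 10 genes described here encode the peroxiredoxins *Prdx1* to *Prdx6*, the glutathione peroxidases *Gpx1* and *Gpx4*, catalase (*Cat*) and the mitochondrial manganese superoxide dismutase (*Sod2*). They were taken by symbol from the deposited count table, after the counts of entries with the same gene name had been summed, and make up 10 of its 24849 gene names. Each of the 10 had 1 entry, and all 10 passed the filter on low counts in every comparison. RNA was sequenced from AML12, an immortalised mouse hepatocyte line derived from a liver carrying a transforming growth factor alpha transgene. The 11 libraries came from 3 lines, namely 4 libraries of KO cells, 3 of WT cells and 4 of KI cells. The WT cells were unmodified AML12. In the KO cells *Txndc5*, the gene of an endoplasmic reticulum (ER) thioredoxin-domain protein of the disulfide isomerase family, had been disrupted with CRISPR/Cas9 and puromycin selection, although their genotype is labelled a knockdown. The KI cells are labelled a TXNDC5 knock-in, and the series text describes overexpression from the ROSA26 locus. No treatment, time or dose separated the lines. Libraries are named below by line and by the number in their labels (KO 5 to KO 8, WT 5-6, WT 7 and WT 8, KI 5 to KI 8). Nothing in the labels says that the libraries of a line came from separate cultures or clones, so the p-values measure the spread between libraries, which may be technical.

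Peroxiredoxins reduce hydrogen peroxide and organic peroxides with a reactive cysteine and are mostly regenerated by thioredoxin, while glutathione peroxidases 1 and 4 use a selenocysteine and glutathione, and catalase splits hydrogen peroxide without a thiol. Superoxide dismutase 2 lies upstream of these enzymes, because it makes hydrogen peroxide from superoxide in the mitochondrial matrix. Hepatocytes are rich in such enzymes, since fatty acid oxidation, respiration and disulfide formation in the ER all yield peroxide, and the family is divided among the cytosol, mitochondria, peroxisomes and ER.

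The targeted gene was counted 287 to 430 times in the KO libraries, 3299 to 4046 times in the WT libraries and 5344 to 6723 times in the KI libraries. Levels below are CPM, read counts scaled to library size, after trimmed mean of M-values (TMM) scaling over all 11 libraries, and each comparison was tested with edgeR's quasi-likelihood test, a call being a Benjamini-Hochberg adjusted p under 0.05 over all genes tested. All KI libraries lay above all WT libraries for *Txndc5* (158 to 180 against 138 to 147 CPM), but the 1.18-fold difference was not called (log2 0.24, SE 0.12, adjusted p = 0.136). The overexpression that the series text describes was thus not past the threshold in this row. Whether the row counts reads of the inserted copy was not given in the sources used here. Total counts ran from 29840366 to 38422243. Within its line, WT 8 was the library farthest from the group mean for 7 of the 10 genes, KI 8 for 6 and KO 5 for 5. Over all genes tested, the root mean square log2 deviation was 0.464 in WT 8, 0.436 in WT 5-6 and 0.398 in WT 7. Entries outside the reference annotation took 18.8 to 25.3% of the WT counts, 11.9 to 13.4% of the KO counts and 9.65 to 16.4% of the KI counts, and TMM factors were 0.744 to 0.947 in WT cells against 1.02 to 1.13 in the edited lines. Hepatocyte markers were present in each line (summed level 6996 to 11030 CPM), with 0 of 8 at or under 3 counts in all libraries of a line. Much of this sum came from the keratin genes *Krt8* and *Krt18*. Their means in KO, WT and KI cells were 2660, 2839 and 4357 CPM and 968, 1024 and 1853 CPM. Single markers differed between lines in opposite directions. The means in KO, WT and KI cells were 4115, 513 and 246 CPM for *Alb* and 23.1, 1.60 and 0.778 CPM for *Apoa1*. They were 0.595, 8.04 and 11.5 CPM for *Serpina1a* and 1346, 2975 and 1410 CPM for *Trf*. The summed level of 4 macrophage and leukocyte markers was 1.89 to 2.58 CPM in KO, 6.64 to 9.56 CPM in WT and 3.25 to 6.66 CPM in KI libraries, with *Adgre1* at or under 3 counts in each library. Of the other lists, 3 of 4 biliary markers were present (*Epcam* was not). The biliary list summed to 1086 to 1221 CPM in KO, 861 to 1091 CPM in WT and 710 to 974 CPM in KI libraries. The 5 fibroblast and stellate markers summed to at most 1.15 CPM and 3 endothelial markers to at most 0.425 CPM. The part of these markers and of the unannotated entries in the results was not tested. In such bulk RNA, fewer cells expressing a gene and less RNA per cell cannot be told apart.

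The promoters of 4 of the genes are shown, namely those with the largest change in one of the comparisons with WT cells (*Prdx5*, *Prdx4* and *Gpx1*) and the promoter that held a searched motif (*Prdx1*). Each window is 300 bases long, from 250 before to 50 from the RefSeq transcription start on, on GRCm38.p6, and is written 5′ to 3′ on the strand of the gene. Capitals mark the core of the antioxidant response element, searched on both strands as TGACNNNGC, and here present on the opposite strand (it reads GCTGAGTCA along the gene).
Prdx1, chr4:116685349-116685648, plus strand: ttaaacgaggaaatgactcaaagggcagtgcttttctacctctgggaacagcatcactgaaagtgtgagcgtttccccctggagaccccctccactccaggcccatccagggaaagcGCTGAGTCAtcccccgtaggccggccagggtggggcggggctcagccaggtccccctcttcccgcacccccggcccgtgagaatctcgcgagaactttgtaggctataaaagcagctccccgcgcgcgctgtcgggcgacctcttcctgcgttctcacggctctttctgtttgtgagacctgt
Prdx4, chrX:155338411-155338710, minus strand: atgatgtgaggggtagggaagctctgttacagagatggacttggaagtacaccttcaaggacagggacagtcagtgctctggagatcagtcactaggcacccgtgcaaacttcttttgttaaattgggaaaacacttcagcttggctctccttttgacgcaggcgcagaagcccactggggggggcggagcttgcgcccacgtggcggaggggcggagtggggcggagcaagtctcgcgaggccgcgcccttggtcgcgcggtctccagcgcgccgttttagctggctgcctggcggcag
Prdx5, chr19:6910057-6910356, minus strand: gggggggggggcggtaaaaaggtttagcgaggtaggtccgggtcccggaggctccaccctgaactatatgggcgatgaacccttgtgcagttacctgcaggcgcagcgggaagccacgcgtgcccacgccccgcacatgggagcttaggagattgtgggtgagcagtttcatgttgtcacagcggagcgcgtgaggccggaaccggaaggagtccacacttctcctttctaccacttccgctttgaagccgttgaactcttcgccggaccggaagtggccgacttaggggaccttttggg
Gpx1, chr9:108338830-108339129, plus strand: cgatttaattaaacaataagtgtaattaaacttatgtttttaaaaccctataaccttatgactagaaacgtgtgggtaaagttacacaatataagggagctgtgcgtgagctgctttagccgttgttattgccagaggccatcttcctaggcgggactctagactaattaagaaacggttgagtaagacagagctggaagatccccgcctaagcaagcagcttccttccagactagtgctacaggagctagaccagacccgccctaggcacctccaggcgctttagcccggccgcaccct

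The match in *Prdx1* began 133 bases before the start and contains the letters TGAGTCA, the core also read by AP-1 factors. It was the one match among the windows of *Prdx1* to *Prdx5*, *Gpx1*, *Gpx4*, *Cat* and *Sod2*, while 12.4% of 32851 mouse promoters of that length held the motif. The forkhead core GTAAACA was in none of these windows and in 3.65% of all promoters. The *Prdx1*, *Prdx4* and *Prdx5* windows had 60.7%, 60.7% and 61.0% G and C, against 47.0% in *Gpx1* and a median of 52.7% over all promoters.

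Across lines the genes covered a wide range of levels. Per kilobase of the principal GENCODE transcript, *Prdx1*, the abundant cytosolic peroxiredoxin, had the highest mean level in each line, at 651 ± 116 CPM per kb in KO cells (SD, n = 4), 1134 ± 345 in WT cells (SD, n = 3) and 991 ± 173 in KI cells (SD, n = 4). In WT cells it was followed by *Prdx5* (1030 ± 257 CPM per kb) and *Gpx4* (895 ± 262 CPM per kb), and these neighbours in the order did not differ beyond the spread of the libraries. *Gpx4* came next in KO and KI cells, at 537 ± 81.3 and 619 ± 109 CPM per kb. Its libraries overlapped those of *Prdx1* in KO cells and lay apart from them in KI cells. *Prdx5* ranked 4 in KO cells at 274 ± 37.8 CPM per kb, overlapping *Gpx1* above it, and 3 in KI cells at 535.5 ± 84.7 CPM per kb. *Sod2* was lowest in each line at 14.6 to 23.4 CPM per kb, and in KI cells *Prdx4* overlapped with it (16.6 ± 2.4 CPM per kb). With lengths over all annotated exons *Prdx1* was again first in each line, and *Prdx4* then fell below *Sod2* in KI cells. Among the remaining genes of WT cells, from *Gpx1* at 211 to *Prdx6* at 121.5 CPM per kb, each neighbour in the order overlapped the next.

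**Figure D1:**
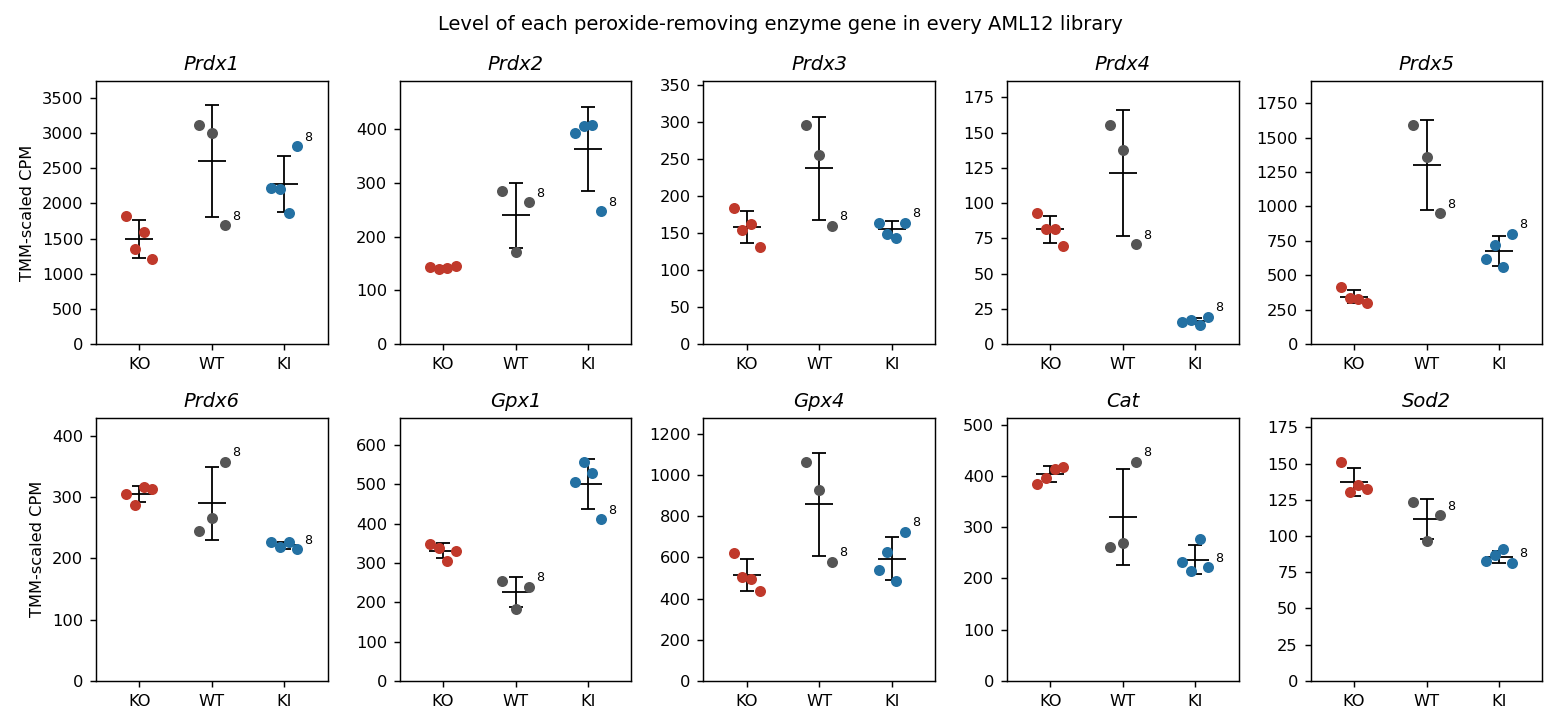
Level of each of the 10 genes in every library, as TMM-scaled CPM on a linear axis from 0 (points: single libraries; bars: mean ± SD; n = 4 KO, 3 WT and 4 KI; libraries WT 8 and KI 8 are numbered). *Prdx4* in KI cells lay between 13.6 and 19.4 CPM, below all other libraries, and WT 8 lay near the KO libraries for *Prdx1*, *Prdx3*, *Prdx4* and *Cat*.

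In KO cells, the peroxiredoxin transcripts were mostly lower than in WT cells. Of the 10 genes, 7 were called, 6 lower (*Prdx1* to *Prdx5* and *Gpx4*) and 1 higher (*Gpx1*), whereas *Prdx6*, *Cat* and *Sod2* did not pass the test. The background for these counts is that 55.1% of the 13359 genes tested were called, 28.4% lower and 26.7% higher, and the median log2 fold change was -0.60 over the 10 genes and -0.03 over all genes. The median size of the change, 0.60 on the log2 scale, was close to that of all genes (0.58), and 4 of the 10 genes had libraries that did not overlap between the lines, against 55.1% of all genes. A called change of more than 1 on the log2 scale was seen for 1 gene (*Prdx5*), against 25.6% of all genes. The sizes depend on scaling, because scaling to library totals moved the all-gene median from -0.03 to 0.38 and the share of calls that were higher from 48.5% to 72.8%. With totals, 4 of the 10 genes were called, *Prdx5* lower and *Gpx1*, *Cat* and *Sod2* higher. Over all genes, 7799 of the 13359 tested were then called.

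In KI cells compared with WT cells, 6 of the 10 genes were called, with *Prdx3*, *Prdx4*, *Prdx5* and *Sod2* lower and *Prdx2* and *Gpx1* higher. Among the 13534 genes tested, 42.3% were called, 21% lower and 21.2% higher, and the median log2 fold change was -0.41 over the 10 genes and -0.02 over all genes. Libraries did not overlap for 5 of the 10 genes, against 44.6% of all genes, and 2 genes (*Prdx4* and *Gpx1*) were called with a change of more than 1 on the log2 scale, against 16.4%. With library totals the median over all genes moved from -0.02 to 0.31, the share of higher calls from 50.2% to 76.3%, and *Prdx3* (-0.25, adjusted p = 0.188 by edgeR) and *Sod2* (-0.05, adjusted p = 0.816) were no longer called. Both comparisons use the same 3 WT libraries, so their values are given side by side and are not independent of each other.

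The edited lines were also compared directly. Between KO and KI cells 8 of the 10 genes were called, 4 higher in KO cells (*Prdx4*, *Prdx6*, *Cat* and *Sod2*) and 4 lower (*Prdx1*, *Prdx2*, *Prdx5* and *Gpx1*), where 54% of 13269 genes tested were called (27% higher and 27% lower). The same 8 genes had libraries that did not overlap, against 48.8% of all genes, and 2 (*Prdx2* and *Prdx4*) were called with a change of more than 1, against 17.4%. All 8 calls were kept under each of the 16 alternatives, library totals and the omission of any 1 library included, and the median size of the change was 0.64 on the log2 scale against 0.41 over all genes.

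**Figure D2:**
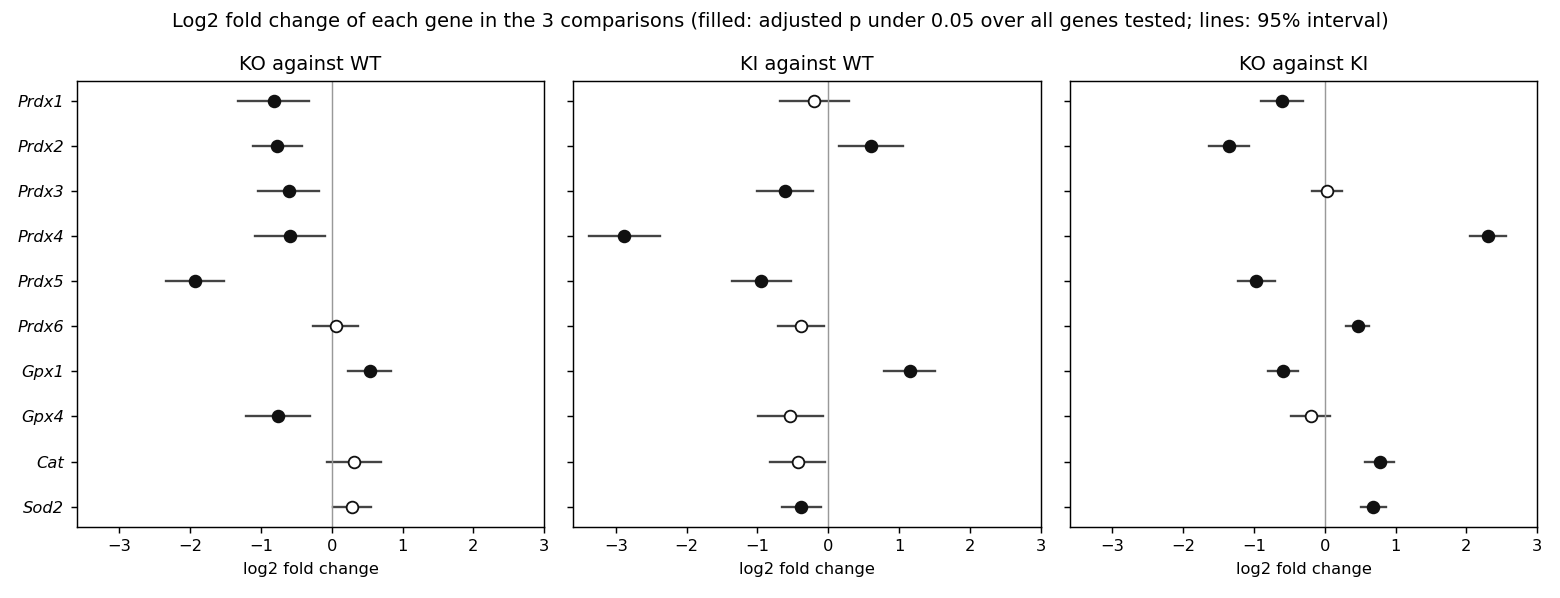
Log2 fold changes of the 10 genes in KO against WT, KI against WT and KO against KI cells (points: estimates from edgeR; lines: 95% intervals; filled points: adjusted p under 0.05 over all genes tested). *Prdx5* in KO cells (-1.93) and *Prdx4* in KI cells (-2.88) were the largest changes against WT cells, and *Gpx1* was higher than in WT cells in both edited lines.

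*Prdx4*, on the X chromosome (chrX:155323918-155340754 of GRCm38, minus strand), encodes the peroxiredoxin of the ER, which uses peroxide to oxidise protein disulfide isomerases. Its level was 92.7, 81.8, 81.65 and 69.7 CPM in KO 5 to KO 8, 155, 137 and 71.0 CPM in WT 5-6, WT 7 and WT 8, and 16.1, 16.8, 13.6 and 19.4 CPM in KI 5 to KI 8. The KI libraries, with 522 to 638 counts each, lay far below all others, while WT 8 lay within the KO range. *Prdx4* was 7.37-fold lower in KI than in WT cells (log2 -2.88, SE 0.23, adjusted p = 2.52e-06 by edgeR) and 4.96-fold higher in KO than in KI cells (log2 2.31, SE 0.12, adjusted p = 5.42e-10). Against WT cells the KO level was 1.51-fold lower (log2 -0.59, SE 0.22, adjusted p = 0.0426), a call that was lost when any 1 of KO 6, KO 7, KO 8, WT 5-6 or WT 7 was left out (-0.35 to -0.60, adjusted p = 0.0820 to 0.215 by edgeR). With library totals this difference was -0.14 (adjusted p = 0.532). With a replicate block, a term for the library number in a fit of all 3 lines, it was -0.37 (adjusted p = 0.268). Of 384 tested genes on the X chromosome, 2.08% had a lower log2 fold change than *Prdx4* in KI against WT cells, and their median was 0.08.

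*Prdx5* (chr19:6906697-6910106, minus strand) encodes an atypical peroxiredoxin found in mitochondria, peroxisomes and the cytosol. It was measured at 413, 335, 331.5 and 302 CPM in KO 5 to KO 8, at 1592, 1357 and 949.9 CPM in WT 5-6, WT 7 and WT 8, and at 621, 718, 561 and 803.5 CPM in KI 5 to KI 8. The 3 lines did not overlap, with KO cells lowest and WT cells highest. The KI level was 1.92-fold below the WT level (log2 -0.94, SE 0.19, adjusted p = 0.00201 by edgeR) and the KO level was 1.95-fold below the KI level (log2 -0.96, SE 0.12, adjusted p = 8.30e-06). Against WT cells, the change in KO cells was -1.93 (SE 0.19, adjusted p = 1.30e-05) and stayed between -2.09 and -1.49 in all 15 alternatives, each of them called. Of 454 tested genes on chromosome 19, whose median in that comparison was -0.34, 6.17% had a lower value. The paper on these cells reported *Prdx5* as lower in KO cells by RNA sequencing but as higher by quantitative PCR. *Trmt112* overlaps *Prdx5* on the other strand, and use of strand in the counting was not given in the sources used here. Its 1187 to 1854 counts per library were few beside the 11046 to 35700 of *Prdx5*, and its own changes were smaller (KO against WT -0.62, adjusted p = 0.00280, and KI against WT -0.34, adjusted p = 0.0719 by edgeR).

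*Prdx3* (chr19:60864051-60874556, minus strand) encodes the peroxiredoxin of the mitochondrial matrix. Its level was 184, 154, 162 and 132 CPM in KO 5 to KO 8, 296, 256 and 160.0 CPM in WT 5-6, WT 7 and WT 8, and 164, 149, 143 and 164 CPM in KI 5 to KI 8. WT 5-6 and WT 7 were above all libraries of the edited lines, and WT 8 was among them. Both edited lines were called lower than WT cells, with log2 -0.61 in KO cells (SE 0.20, adjusted p = 0.0218 by edgeR) and -0.61 in KI cells (SE 0.18, adjusted p = 0.0170). Neither call held in each omission: that for KO cells was lost without KO 6, KO 8, WT 5-6 or WT 7 (-0.39 to -0.60) and that for KI cells without WT 5-6 or WT 7 (-0.42 and -0.56). Both calls were also lost with library totals (KO -0.16, KI -0.25) and with a replicate block (KO -0.43, KI -0.45). Between KO and KI cells the difference was 0.03, with a 95% interval from -0.18 to 0.25.

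*Sod2* (chr17:13006846-13040063, plus strand), which supplies peroxide in the same compartment, was measured at 151, 130.1, 135 and 132.5 CPM in KO 5 to KO 8, 124, 96.6 and 114 CPM in WT 5-6, WT 7 and WT 8, and 83.0, 87.2, 91.0 and 81.5 CPM in KI 5 to KI 8. The lines did not overlap, and the order was KO above WT above KI. The difference between KO and KI cells was called (1.61-fold, log2 0.68, SE 0.08, adjusted p = 6.48e-06 by edgeR), and so was the lower level in KI than in WT cells (log2 -0.38, SE 0.13, adjusted p = 0.0313). The higher level in KO than in WT cells missed the threshold (log2 0.28, SE 0.12, adjusted p = 0.0716), and was called without WT 5-6 (0.38, adjusted p = 0.0326) or WT 8 (0.33, adjusted p = 0.0335), in a fit of all 3 lines (0.30, adjusted p = 0.0315) and with library totals (0.69, adjusted p = 0.00131). The call in KI cells was lost without WT 5-6 or any 1 KI library (-0.30 to -0.41, adjusted p = 0.0523 to 0.101) and without a filter on low counts (-0.37, adjusted p = 0.0576). It was also lost with library totals (-0.05) and with a replicate block (-0.31, adjusted p = 0.134).

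Of the cytosolic peroxiredoxins that thioredoxin recycles, *Prdx1* (chr4:116685544-116700822, plus strand) had 1818, 1357, 1589 and 1214 CPM in KO 5 to KO 8, 3113, 3002 and 1689 CPM in WT 5-6, WT 7 and WT 8, and 2213, 2209, 1858 and 2812 CPM in KI 5 to KI 8. All KO libraries lay below all KI libraries, while WT 8 lay within the KO range. *Prdx1* was 1.77-fold lower in KO than in WT cells (log2 -0.82, SE 0.23, adjusted p = 0.00998 by edgeR) and 1.52-fold lower in KO than in KI cells (log2 -0.60, SE 0.14, adjusted p = 0.00185). The call against WT cells was lost without WT 7 (-0.68, adjusted p = 0.0575), with library totals (-0.38, adjusted p = 0.0804) and with a replicate block (-0.66, adjusted p = 0.0796). KI cells did not pass the test against WT cells (log2 -0.20, 95% interval -0.68 to 0.29), were called lower without WT 8 (-0.43, adjusted p = 0.0431) and had the opposite sign with library totals (0.16).

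*Prdx2* (chr8:84969587-84974834, plus strand) was steady in KO cells at 144, 139, 141 and 145 CPM, varied in WT cells at 285, 171 and 264 CPM in WT 5-6, WT 7 and WT 8, and was 392.5, 405, 408 and 247 CPM in KI 5 to KI 8. KO cells were below both other lines without overlap, and KI 8 alone among the KI libraries lay within the WT range. The KO level was 1.71-fold below WT cells (log2 -0.77, SE 0.16, adjusted p = 0.00176 by edgeR) and 2.55-fold below KI cells (log2 -1.35, SE 0.13, adjusted p = 6.66e-07). The first of these was -0.36 with library totals (adjusted p = 0.0982), although its call was kept when any 1 library was left out. The rise of 0.60 in KI against WT cells (SE 0.21, adjusted p = 0.0356) was lost without WT 7, KI 5, KI 6 or KI 7 (0.40 to 0.56) and was 0.75 without KI 8. With a replicate block the rise was 0.67 and not called (adjusted p = 0.0793). *Junb* and *Rnaseh2a* overlap *Prdx2* on the other strand, and they changed by -0.22 (adjusted p = 0.160) and -0.51 (adjusted p = 0.00657 by edgeR) in KO against WT cells and by 0.37 (adjusted p = 0.0490) and 0.06 (adjusted p = 0.781) in KI against WT cells. *Junb* had 5242 to 10717 counts per library, of the same order as the 4231 to 15608 of *Prdx2*, and how shared reads were divided was not given in the sources used here.

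*Prdx6* (chr1:161240112-161251219, minus strand) encodes the peroxiredoxin with 1 active-site cysteine, which uses glutathione and also acts on phospholipids. Its level was 305, 288, 316 and 314 CPM in KO 5 to KO 8, 245, 267 and 358 CPM in WT 5-6, WT 7 and WT 8, and 227, 218, 227 and 215 CPM in KI 5 to KI 8. The KI libraries were below all others, and the WT libraries lay on both sides of the KO libraries. The difference between KO and KI cells was 1.38-fold (log2 0.47, SE 0.08, adjusted p = 0.000106 by edgeR). KI cells missed the threshold against WT cells (log2 -0.39, SE 0.15, adjusted p = 0.0529), and were called lower without WT 5-6 (-0.49, adjusted p = 0.0224) and under DESeq2 (-0.41, adjusted p = 0.0187), median-of-ratios scaling (-0.41, adjusted p = 0.0423) and a fit of all 3 lines (-0.39, adjusted p = 0.0189). KI cells were also called lower with a replicate block (-0.47, adjusted p = 0.0442). With library totals this difference was -0.08 (adjusted p = 0.745), and that of KO against WT cells was 0.44 (adjusted p = 0.0646). The interval for KO against WT cells ran from -0.26 to 0.38, its estimate changed sign without WT 5-6 (-0.03), and without WT 8 it was called higher (0.27, adjusted p = 0.0404). *Prdx6b*, a related copy on the same table, had at most 2 counts in any library.

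*Gpx1* (chr9:108338903-108340343, plus strand), the cytosolic and mitochondrial glutathione peroxidase, rose in both edited lines. Its level was 349, 338, 306 and 331 CPM in KO 5 to KO 8, 255, 183 and 239.8 CPM in WT 5-6, WT 7 and WT 8, and 505, 557, 527.5 and 411.5 CPM in KI 5 to KI 8. The 3 lines did not overlap, with KI cells highest and WT cells lowest. Against WT cells it was 2.22-fold higher in KI cells (log2 1.15, SE 0.17, adjusted p = 0.000175 by edgeR) and 1.45-fold higher in KO cells (log2 0.53, SE 0.14, adjusted p = 0.00666). Both calls were kept in all 15 alternatives of each comparison, over ranges of 1.02 to 1.48 and 0.43 to 0.94. KI cells also exceeded KO cells by 1.51-fold (log2 of KO against KI -0.59, SE 0.10, adjusted p = 0.000130).

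*Gpx4* (chr10:80047166-80056439, plus strand), which reduces phospholipid hydroperoxides in membranes, did not share this pattern. It was measured at 622.5, 506, 493.5 and 437 CPM in KO 5 to KO 8, 1066, 928 and 579 CPM in WT 5-6, WT 7 and WT 8, and 538, 625, 486 and 725 CPM in KI 5 to KI 8. WT 5-6 and WT 7 were above all other libraries, and WT 8 was among those of the edited lines. The KO level was called lower than the WT level (1.69-fold, log2 -0.76, SE 0.21, adjusted p = 0.00885 by edgeR), but not with library totals (-0.32, adjusted p = 0.1004) or a replicate block (-0.60, adjusted p = 0.0838). KI cells missed the threshold (log2 -0.53, SE 0.21, adjusted p = 0.0558) and were called lower without WT 8 (-0.75, adjusted p = 0.00164) or without KI 8 (-0.64, adjusted p = 0.0391). They were also called lower under DESeq2 (adjusted p = 0.0184), median-of-ratios scaling (0.0497), no filter (0.0407) and a fit of all 3 lines (0.0342), at -0.52 to -0.56, whereas library totals gave -0.18 (adjusted p = 0.406). KO and KI cells differed by -0.20, with a 95% interval from -0.47 to 0.07. Leaving out KO 5 made that difference -0.31 (adjusted p = 0.0461).

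*Cat* (chr2:103453849-103485160, minus strand), the haem enzyme of peroxisomes, had 384, 397, 413.5 and 418 CPM in KO 5 to KO 8, 261, 269 and 428 CPM in WT 5-6, WT 7 and WT 8, and 232, 214, 277 and 222.5 CPM in KI 5 to KI 8. WT 8 was above all KO libraries, whereas WT 5-6 and WT 7 lay within the KI range. KO cells exceeded KI cells 1.71-fold (log2 0.77, SE 0.09, adjusted p = 6.54e-06 by edgeR), where the median over 962 tested genes of chromosome 2 was 0.39. Neither line was called against WT cells (KO 0.32, SE 0.17, adjusted p = 0.144, and KI -0.43, SE 0.18, adjusted p = 0.0716). Without WT 8 the KO level was called higher (0.61, adjusted p = 0.000294), and without WT 5-6 the KI level was called lower (-0.56, adjusted p = 0.0368). The KI level was also called lower under DESeq2 (-0.46, adjusted p = 0.0338) and in a fit of all 3 lines (-0.44, adjusted p = 0.0338). Library totals gave -0.14 (adjusted p = 0.661) for KI cells and 0.70 (adjusted p = 0.0207) for KO cells.

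**Figure D3:**
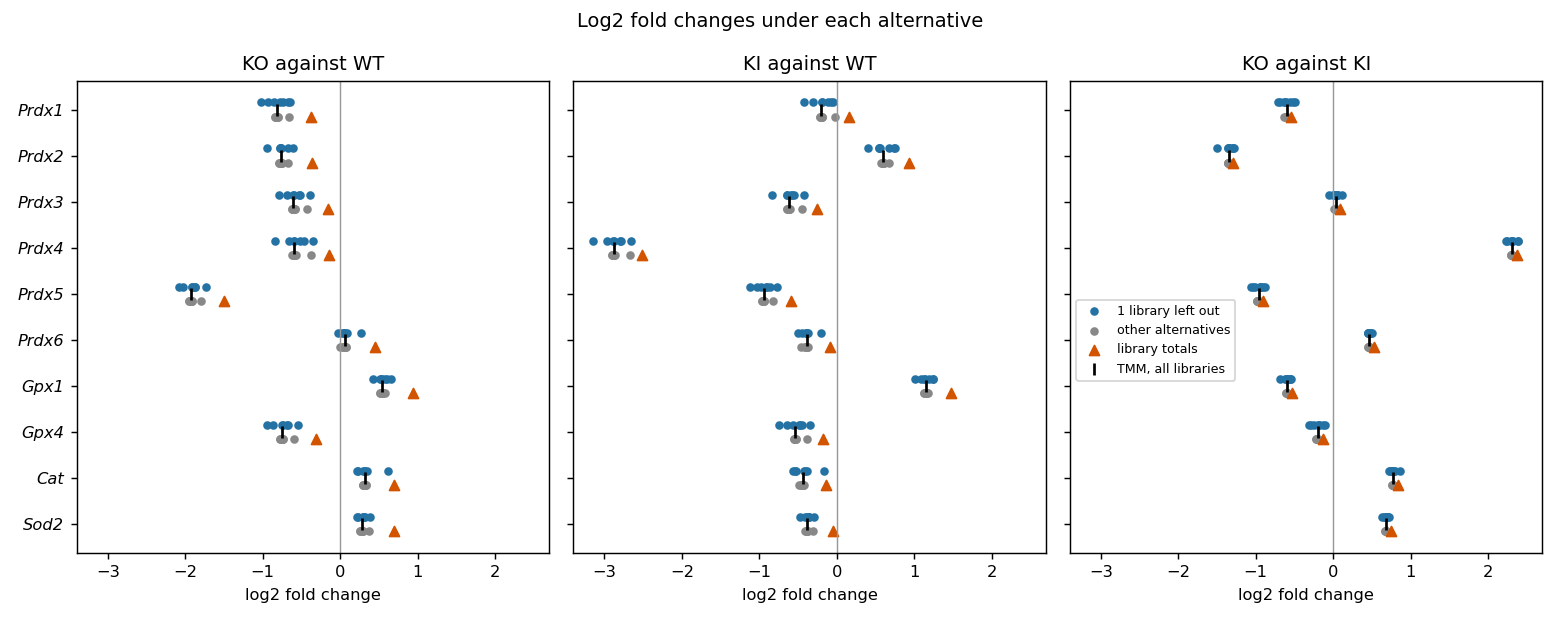
Log2 fold change of each gene under alternative settings (vertical ticks: TMM scaling and all libraries; blue: 1 library left out; grey: other alternatives; triangles: scaling to library totals). Library totals shifted both comparisons with WT cells upwards and changed KO against KI cells little. Only *Prdx6* in KO against WT, *Prdx1* in KI against WT and *Prdx3* in KO against KI cells changed their side of 0 under any alternative.

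Shares within a library do not depend on scaling between libraries. *Prdx5* supplied 12.6 to 14.2% of the counts of the 6 peroxiredoxins in KO cells, 26.2 to 28.0% in WT cells and 17.1 to 19.3% in KI cells, without overlap and with WT 8 inside the narrow WT range. *Prdx4* supplied 3.12 to 3.47%, 2.03 to 2.73% and 0.425 to 0.455% of these counts in KO, WT and KI cells. Thus its share was higher in KO than in WT libraries, although its mean CPM was lower. A share also depends on the level of the other genes. The summed level of the 6 peroxiredoxins was 2176 to 2956, 3492 to 5686 and 3210 to 4261 CPM in KO, WT and KI libraries. *Prdx3* took 6.05 to 6.55%, 4.58 to 5.21% and 3.85 to 4.52%, in the same order of lines and again without overlap. *Prdx6* took 10.3 to 14.4% in KO cells and 5.04 to 7.06% in KI cells, with a wide WT range of 4.31 to 10.3%. *Prdx1* supplied most of the counts, 55.8 to 61.5% in KO, 48.4 to 57.8% in WT and 57.9 to 66.0% in KI cells. *Prdx2* outnumbered *Prdx4* by 1.55 to 2.08 times in KO libraries, 1.24 to 3.72 times in WT libraries and 12.7 to 29.9 times in KI libraries, and the lowest KI ratio was that of KI 8. *Gpx4* counts were 2.42 to 5.08 times those of *Gpx1* in WT libraries, against 1.32 to 1.78 times in KO libraries and 0.921 to 1.76 times in KI libraries. These shares and ratios are counts not divided by transcript length.

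**Figure D4:**
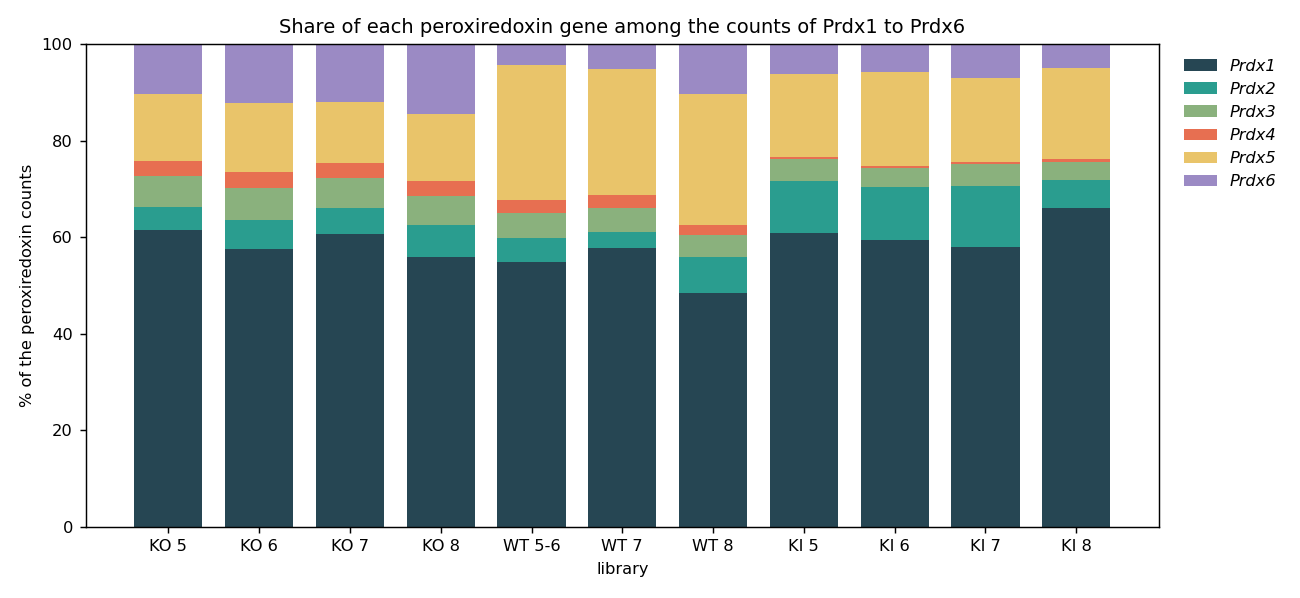
Percentage of the summed counts of *Prdx1* to *Prdx6* that each gene supplied, for each of the 11 libraries (stacked bars, not divided by gene length). The *Prdx5* segment was 26.2 to 28.0% in WT cells and at most 19.3% in the edited lines, and the *Prdx4* segment was 0.425 to 0.455% in KI cells.

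The genes whose level followed each of the 10 most closely were found by the root mean square (RMS) difference of gene-centred log2 CPM over 11 libraries, among 13948 genes. The nearest to *Prdx4* was *Saa3*, an acute-phase serum amyloid A gene, at 0.231, followed by *Angpt1* at 0.346 and *Fas* at 0.360. For *Prdx5* it was *Mthfsl* (0.107), for *Prdx2* *Habp2* (0.154), for *Gpx1* *Ttc13* (0.0929) and for *Prdx3* the mitochondrial assembly factor gene *Cox20* (0.0752). The remaining nearest genes were *Dcun1d5* for *Prdx1* (0.0778), *Ube2h* for *Prdx6* (0.0678), *Hint1* for *Gpx4* (0.0582), *Zdhhc9* for *Cat* (0.0784) and *Parn* for *Sod2* (0.0862). Within the family the closest pairs were *Gpx4* with *Prdx3* (0.152), *Prdx6* with *Cat* (0.172) and *Prdx6* with *Sod2* (0.190). The libraries share their line, so these are descriptions of likeness only.

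Among relatives outside the 10 genes, *Gpx3*, the secreted plasma glutathione peroxidase, had the largest difference from WT cells. It was counted 10 to 63 times in KO libraries, 1926 to 2726 times in WT libraries and 151 to 218 times in KI libraries, with no overlap between the 3 lines. Its log2 fold change was -6.75 in KO cells (SE 0.34, adjusted p = 1.44e-07 by edgeR) and -4.18 in KI cells (SE 0.17, adjusted p = 1.93e-08). *Sod1*, the cytosolic superoxide dismutase, was higher in KO than in WT cells (0.71, adjusted p = 0.000747) and was not called in KI cells (0.11, adjusted p = 0.637). Its copper chaperone *Ccs* was lower in KI than in WT cells (-0.57, adjusted p = 0.0199) and was not called in KO cells (-0.09, adjusted p = 0.664). *Gpx8*, an ER glutathione peroxidase, was at 0 in all KO libraries and in WT 5-6 and WT 8, at 16 counts in WT 7 and at 25 to 55 counts in KI libraries. *Gpx2*, *Gpx5* and *Gpx6* had 0 counts in all libraries, *Gpx7* had at most 3 and *Sod3* had 4 to 33 counts.

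Of 10 genes that recycle or restrain the thioredoxin system, 6 were called in KO against WT cells, 4 higher and 2 lower, and likewise 4 higher and 2 lower in KI against WT cells, with list medians of 0.39 and -0.12. The called share was 60.0% in both, against 55.1% and 42.3% of all genes. *Srxn1*, the sulfiredoxin that repairs overoxidised peroxiredoxins, was named after its values were seen and was higher in KO cells (0.92, adjusted p = 4.55e-05 by edgeR), but not called in KI cells (-0.17, adjusted p = 0.305). The other 3 genes higher in KO cells, also outside the naming rule, were *Txnrd1* (0.56), *Txn2* (0.43) and *Sesn2* (0.86), and in KI cells *Txnrd1* (0.37), *Txn2* (0.45), *Txnrd3* (0.71) and *Sesn3* (0.57) were higher. *Txnip*, which binds and inhibits thioredoxin, was lower in both, at 128 to 146 CPM in KO, 255 to 328 CPM in WT and 65.7 to 88.4 CPM in KI libraries, with log2 fold changes of -1.11 (adjusted p = 3.15e-05) and -2.05 (adjusted p = 1.32e-06). *Sesn1* was lower as well (-1.03, adjusted p = 0.00162, and -0.74, adjusted p = 0.0129).

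Of 15 genes of glutathione and NADPH supply, 3 were higher and 2 lower in KO than in WT cells, and 4 were higher and 4 lower in KI than in WT cells. The called shares were 33.3% and 53.3%, against 55.1% and 42.3% of all genes. The lower genes in KO cells were *Glrx*, glutaredoxin (-1.74, adjusted p = 0.000104 by edgeR), and *Idh1*, a cytosolic source of NADPH (-1.63, adjusted p = 4.61e-05), and both were lower in KI cells too (-1.23, adjusted p = 0.000578, and -0.90, adjusted p = 0.00244). The 3 higher genes in KO cells, named after their values were seen, were the glutathione synthesis genes *Gss* (mean 83.8 against 29.3 CPM) and *Gclm* (103 against 57.8 CPM) and the pentose phosphate enzyme *Pgd* (202 against 92.3 CPM). Of 17 tested genes whose products make peroxide or superoxide, 4 were higher and 6 lower in KO than in WT cells, and of 16 tested in KI against WT cells 6 were lower and 0 higher. The called shares were 58.8% and 37.5%, again against 55.1% and 42.3% of all genes. *Ero1a*, the ER oxidase that yields peroxide during disulfide formation, fell in both lines, at 90.6 to 116 CPM in KO, 520 to 541 CPM in WT and 110.3 to 150.3 CPM in KI libraries (log2 -2.38, adjusted p = 2.39e-07, and 133 against 533 mean CPM in KI and WT cells, adjusted p = 1.19e-06). *Cyba*, a subunit of NADPH oxidases, was lower in KO cells (-3.19, adjusted p = 8.14e-08) and in KI cells (-0.59, adjusted p = 0.00436). *Acox2*, a peroxisomal acyl-CoA oxidase, was also lower in both lines (KO -1.08, adjusted p = 3.79e-05, and KI -2.40, adjusted p = 2.68e-07). The 4 genes higher in KO cells, named after their values were seen, were *Ero1b* (1.18), *Xdh* (1.06), *Aox1* (0.815) and *Qsox2* (0.73). Of these *Ero1b*, like *Ero1a* an ER oxidase gene, was not called in KI cells (-0.13, adjusted p = 0.762 by edgeR).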

How the data were processed

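Poly(A) RNA of 11 AML12 libraries was sequenced by the authors, and the deposited table gives raw read counts per gene, not normalized, with 1 column per library. The submitters' processing notes name HISAT2, TopHat2, Bowtie2 and StringTie, without versions; their roles, the genome build, the annotation and the strand setting were not given in the sources used here. The 11 further per-sample columns (FPKM) and 9 columns of the authors' own comparisons (fold changes, p-values) were not used. Of 26472 lines, 10 were broken and left out, and the counts of the other 26462 entries (23502 annotated and 2960 newly assembled) were summed by gene name.

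Groups followed the titles of the samples. Each pair of lines was fitted over all genes with edgeR 4.0.16 in R 4.3.3 (filterByExpr, TMM scaling, robust quasi-likelihood test, Benjamini-Hochberg adjustment, 0.05). CPM used TMM factors over all 11 libraries, and intervals are at 95%. The procedure was tested on simulated data made from KO against WT cells over 13177 genes, where it recovered 91.8% of changes of 1 and 100% of changes of 2 on the log2 scale, with 10 false calls. The simulation changed 200 genes and gave all genes the same dispersion, whereas 55.1% of genes were called in the real comparison. These rates therefore need not hold for the real libraries. Alternatives were library totals, DESeq2 1.42.0, median-of-ratios scaling in edgeR, no filter, the 3 lines in one fit without and with a replicate block, the most counted entry per name, omission of the 2 most counted unannotated entries, and omission of each library. Single-gene values under these alternatives were taken for the 10 genes only. The relatives and the genes of the lists are given with TMM scaling alone, and whether their calls hold under the alternatives was not tested. Total counts of 29840366 to 38422243 put 3 counts at 7.81e-06 to 1.01e-05% of a library, for counting error only. No pair of libraries in a line agreed within sampling noise (chi-square of 17.2 to 169.3 per gene).

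Positions and lengths came from GENCODE M21 (GRCm38) and promoters from RefSeq (GRCm38.p6), not from the files, and 9 of the 10 genes had a promoter entry (*Prdx6* was not matched). The 10 genes, the lists, the markers and the tests were chosen with earlier results of these data known. Named are the 10 genes, *Txndc5*, the relatives, the 2 called genes with the largest change of each other list in each comparison with WT cells (mean of at least 2 log2 CPM), and the genes nearest in pattern. Other names were added after their values were seen.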

Additional observations from a re-analysis of the deposited data

Results flagged for a closer look

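Of the 20 sets of 4 libraries examined (10 genes in KO and in KI cells), 1 held a library far from its others, and chance alone gives about 1 in 20. This was *Prdx2* in KI cells, where KI 8 had 247 CPM and the other 3 libraries 392.5 to 408 CPM, a gap of 0.904 of the whole range of the group. WT cells, with 3 libraries, were not examined in this way.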

How the results depend on the processing

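Of 30 fold changes (10 genes in 3 comparisons), 13 kept their direction and their side of the threshold under every alternative, namely 2 of 10 in KO against WT cells, 3 of 10 in KI against WT cells and 8 of 10 in KO against KI cells. The cause of the changes was not tested. The number of the 10 genes called in KO against WT cells was 4 with library totals, against 7 with all libraries. When 1 library was left out it was 4 to 10. Without WT 7 it was 4, with 6161 of 13646 tested genes called. Without WT 8 it was 10, with 8449 of 13664 tested genes called. The number was 4 to 8 in KI against WT cells and 8 to 9 in KO against KI cells when 1 library was left out. In these omissions 4276 to 6969 of 13345 to 13893 tested genes were called in KI against WT cells. In KO against KI cells 6515 to 7230 of 13453 to 13522 were called. Estimates changed sign for *Prdx6* in KO against WT cells without WT 5-6 (-0.0304, range over omissions -0.0304 to 0.27), for *Prdx1* in KI against WT cells with library totals (0.16), and for *Prdx3* in KO against KI cells without KO 5 (-0.0544) and without KI 7 (-0.0021), over a range of -0.0544 to 0.11. The counts of all genes called stayed within 1.5 times of those reported, at 5826 to 8449, 3819 to 6969 and 5925 to 7620 in the 3 comparisons. Each of the 10 genes had at least 522 counts in every library, and whether greater depth would change a call was not tested.

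Whether the library numbers in the labels pair the samples could not be settled. Over 8 pairs of libraries with the same number, deviations from the line means correlated at -0.19 to 0.21, and 1 pair exceeded 0.1. Pairs with different numbers ran from -0.2 to 0.172. WT 5-6 was counted as sharing no number, and it correlated with KO 5 at 0.163 and with KO 6 at -0.0163. So few libraries cannot exclude a pairing. A replicate block, fitted over 13948 genes, gave 3 of the 10 genes called in KO against WT cells (5826 of all genes). It gave 4 in KI against WT cells (3819) and 8 in KO against KI cells (5925). With the block *Prdx6* in KO against WT cells was -0.0045. In the block WT 5-6 has a number of its own and adds nothing to a comparison with WT cells.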

Other observations

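*Gpx1* and *Gpx4* need selenocysteine, whose machinery was counted as well. Of 8 such genes, 4 were higher and 1 lower in KO than in WT cells, and 1 was higher and 1 lower in KI than in WT cells, with list medians of 0.44 and 0.13 on the log2 scale against -0.03 and -0.02 over all genes. The called shares were 62.5% and 25%, against 55.1% and 42.3% of all genes. *Sephs1*, a relative of the selenophosphate synthetase, was higher in both lines (0.91, adjusted p = 9.09e-05, and 0.41, adjusted p = 0.0365, edgeR). *Selenop*, the selenium carrier secreted by hepatocytes, was lower in KO cells at a mean of 1191 CPM against 3095 CPM in WT cells (-1.40, adjusted p = 1.43e-05, edgeR), and was not called in KI cells (-0.26, adjusted p = 0.188, edgeR). *Scly*, selenocysteine lyase, was lower in KI cells (-0.42, adjusted p = 0.0239, edgeR) and was not called in KO cells (-0.30, adjusted p = 0.0736, edgeR).

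Of 16 genes of peroxisome import and biogenesis, the compartment of catalase, 2 were higher and 4 lower in KO than in WT cells, and 1 was higher and 4 lower in KI than in WT cells. The called shares were 37.5% and 31.2%, against 55.1% and 42.3% of all genes. *Pex13*, a docking protein of the import machinery, was lower in both (-1.31, adjusted p = 0.000403, and -1.04, adjusted p = 0.000941, edgeR). *Pex2* (KO -0.81, adjusted p = 0.00460, and KI -0.73, adjusted p = 0.00534, edgeR) and the import receptor gene *Pex7* (KO -0.69, adjusted p = 0.00274, and KI -0.84, adjusted p = 0.00142, edgeR) were lower in both lines as well. Between the edited lines 6 of the 16 were higher in KO cells and 1 was lower, a called share of 43.75%, against 54% of all genes.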
